A study of Arabidopsis thaliana with 8 samples.

Results

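Roots of Arabidopsis thaliana Col-0 seedlings whose shoots were lit were compared at 7 and at 4 days of age. The comparison took in every locus with at least 10 counts in 2 of the 4 lit-shoot libraries, 20492 of the 33602 loci in the counted table. RNA-seq was made from the primary root of seedlings on half-strength Murashige and Skoog medium with no sucrose, kept at 21 °C on vertical plates, and each library pooled about 70 seedlings. The lit-shoot plates stood in a modified D-Root device: the shoots received 130 µmol of white light for 16 h followed by 8 h of dark, and the roots were kept in the shade. Both ages had 2 independent biological samples, which are called library 1 and library 2 of each age. The dark groups, of the same accession, medium and ages with 2 samples each, grew on foil-wrapped plates. They enter the same fit, so that they share in the estimate of the spread behind each lit-shoot call, and are described only where the change with age differed between lit-shoot and dark roots. Each library is a bulk sample of the whole primary root, in which fewer cells of a type and less RNA per cell cannot be told apart.

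A seedling on medium without sugar first lives on its seed oil, and later on sucrose that its lit leaves make and that the phloem carries down to the root. Between these stages the young root matures behind its meristem: the endodermis lays down the Casparian strip, a lignin seal that closes the path between cells, and later suberin, while phloem and xylem files are added. The root also takes up the iron, sulfate, phosphate and nitrate that growth draws on, and makes defence compounds, among them glucosinolates, which hold sulfur.

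The 4 lit-shoot libraries held 25849135 to 30555290 counts. The pair of libraries of an age correlated across loci at 0.988 at 4 days and 0.981 at 7 days (log2 CPM, the counts scaled to a common library size). A chi-square of 12.1 and 68.0 per degree of freedom put the libraries of each pair outside sampling noise, and the 7-day pair stood further apart. The share of counts from the mitochondrial genome was 4.53% and 3.89% at 4 days and 6.46% and 2.66% at 7 days, and that from the plastid genome ran from 1.31% to 1.71%. The first principal component, with 65.4% of the variance, separated the ages, and the next, with 21.4%, separated the 7-day libraries. Of 15 root tissue markers, 14 were above 1 CPM in all 4 libraries. Of 16 shoot tissue markers, 5 had no count (MUTE, FMA, EPF1, AFO and TGG2, 4 of them regulators of stomata or leaf shape and TGG2 a myrosinase of shoot cells), and their summed level was 44.2 and 38.4 CPM at 4 days and 60.01 and 63.9 CPM at 7 days. Loci at the edge of the count limit were few: 115 had exactly 10 as their second highest count and 119, left out, had 9.

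Between 4 and 7 days 907 loci changed, 4.43% of those tested, with 455 higher at 7 days (2.22%) and 452 lower (2.21%) by edgeR's quasi-likelihood test at a Benjamini-Hochberg adjusted p below 0.05. The median rise was 1.18 and the median fall -0.87 on the log2 scale, against a median of -0.03 over all tested loci, of which 45.6% had a change above 0 and the middle 90% lay between -0.78 and 0.84. A change of at least 2-fold was called at 429 loci (2.09%), 266 higher (1.3%) and 163 lower (0.795%). The libraries of the ages did not overlap at 11447 loci (55.9%), so that a lack of overlap alone marks no gene out. It was also a condition for the called genes chosen by rule and named below, and is no result in them. These calls rest on 2 libraries an age. With library 1 of day 4 left out, edgeR called no locus, although 2693 still had an unadjusted p below 0.05 and DESeq2 called 488, so that this limit holds for every edgeR call below. With library 2 of day 4 left out it called 95, with library 1 of day 7 left out 352 and with library 2 of day 7 left out 1138. In each of these fits the lone library of an age is assumed to vary like the other groups. All 907 called loci kept their direction without each of the 4 lit-shoot libraries. Where the ages do not overlap, leaving out 1 library can hardly turn the direction, so that this is little support. Fitted without the dark libraries, the lit-shoot libraries alone gave 764 calls, of which 575 were among the 907. Of the 76 called genes named below, 43 were also called in that fit and without each single dark library.

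**Figure D1:**
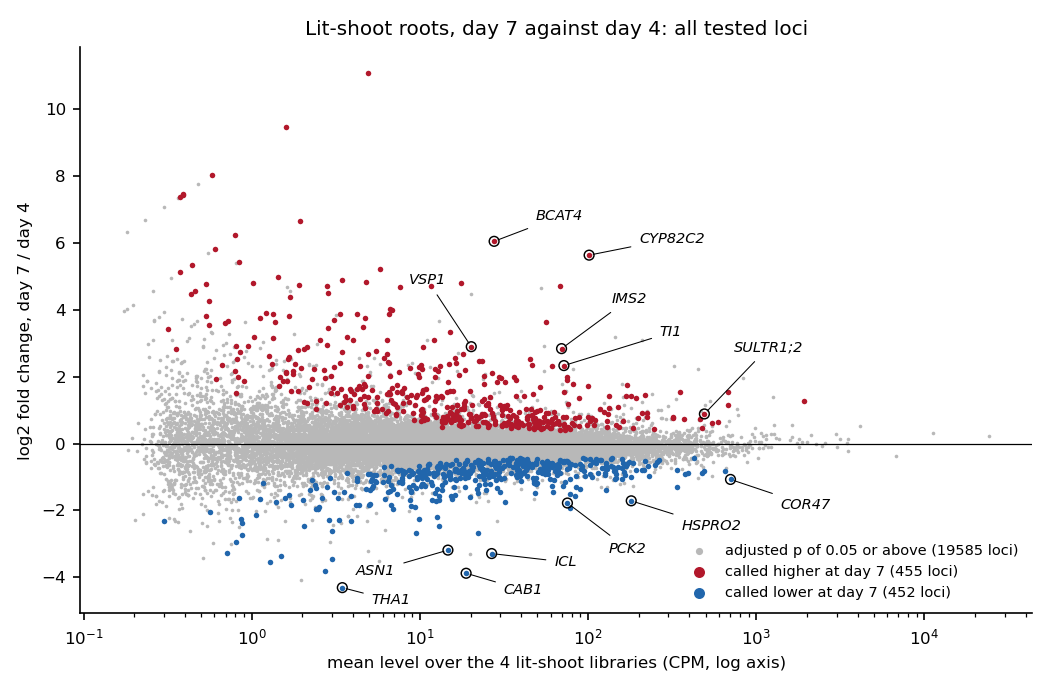
Change from 4 to 7 days in lit-shoot roots (log2 fold change, vertical axis) against mean level (CPM, log axis, horizontal) for the 20492 tested loci; coloured points are the 455 loci called higher and the 452 called lower by edgeR. Ringed points with a leader line are named genes. The highest points, at low levels, include loci with no count at 4 days, whose fitted change is no measure of size.

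In dark roots the same step of age changed 6599 of these loci (32.2%), 13.6% higher and 18.6% lower by edgeR. The change with age differed between lit-shoot and dark roots at 3096 loci (15.1%), with 9.25% moving higher and 5.86% lower with lit shoots relative to the dark, by the edgeR test of the light by age interaction. That count ran from 850 to 3017 when 1 of the 8 libraries was left out.

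**Figure D2:**
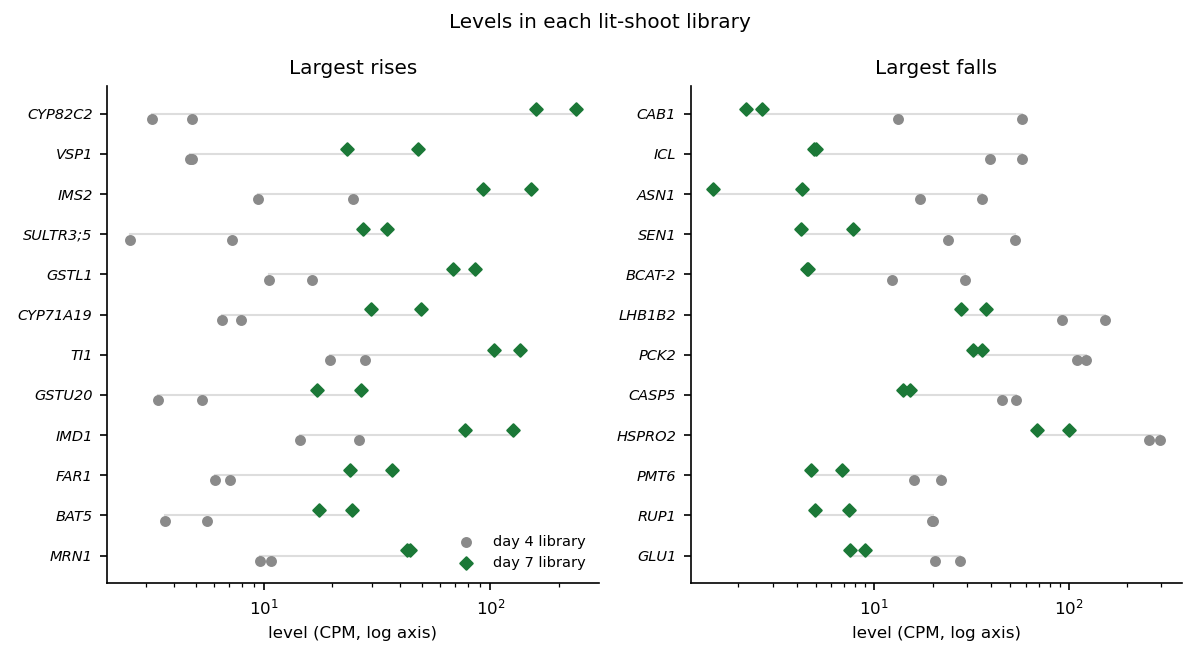
Level in each lit-shoot library (CPM, log axis) of the 12 genes with the largest called rise and the 12 with the largest called fall; points are single libraries, 2 at each age. In every gene shown, from CYP82C2 at the top of the rises to CAB1 among the falls, the 7-day libraries lie on 1 side of the 4-day libraries. This was a condition for choosing them.

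Among genes with a symbol and a mean of at least 3 on the log2 CPM scale, the largest rise was that of CYP82C2 (AT4G31970, chromosome 4), a cytochrome P450 that hydroxylates an indole carbonyl nitrile, a tryptophan-derived defence compound. It stood at 3.21 and 4.83 CPM at 4 days and 159 and 239 CPM at 7 days. The 7-day levels were far above both 4-day levels, a log2 change of 5.63 ± 0.64 (edgeR adjusted p = 0.0127). Its copy AT4G31950 is 91.9% identical, so that reads of the pair may have been split. In dark roots CYP82C2 changed by 5.17 on the log2 scale over the same days, and a difference between the conditions was not called (edgeR adjusted p of the interaction = 0.761).

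VSP1, IMS2, SULTR3;5, IMD1, FAR1, BAT5 and MRN1, all among the 12 largest rises, are described with their lists. Of the others, GSTL1 (AT5G02780), a lambda-class glutathione transferase, was at 10.6 and 16.3 CPM and then 85.6 and 68.6 CPM, a log2 change of 2.52 ± 0.22 (edgeR adjusted p = 0.00539). GSTU20 (AT1G78370), a tau-class glutathione transferase, was at 3.41 and 5.34 CPM and then 17.1 and 26.8 CPM (2.33 ± 0.38 log2, edgeR adjusted p = 0.0211). TI1 (AT2G43510), a trypsin inhibitor, was at 28.0 and 19.6 CPM and then 136 and 104 CPM (2.33 ± 0.21 log2, edgeR adjusted p = 0.00539). In all 3 genes both 7-day libraries were above both 4-day libraries, which the naming rule required. CYP71A19 (AT4G13290), a cytochrome P450 of a subfamily with defence roles, rose by 2.45 ± 0.39 on the log2 scale from 6.52 and 7.90 CPM, with 9.29% of its length overlapped on the other strand. DESeq2 did not call CYP71A19.

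Among the largest falls were genes of carbon and amino acid turnover. PCK2 (AT5G65690), a phosphoenolpyruvate carboxykinase, an enzyme that opens the path from organic acids to sugar, was at 123 and 110.1 CPM and then 32.2 and 35.9 CPM. The pairs lay far apart, with a log2 change of -1.78 ± 0.14 (edgeR adjusted p = 0.00537). HSPRO2 (AT2G40000), an ortholog of a beet gene for nematode resistance, was at 294 and 259 CPM and then 100.4 and 68.6 CPM (-1.71 ± 0.24 log2, edgeR adjusted p = 0.0127). PMT6 (AT4G36670), a polyol and monosaccharide transporter, was at 22.03 and 16.0 CPM and then 4.74 and 6.86 CPM (-1.71 ± 0.24 log2, edgeR adjusted p = 0.0127). RUP1 (AT5G52250), a repressor of ultraviolet-B signalling, fell from 20.04 and 19.7 CPM to 4.95 and 7.43 CPM (-1.68 ± 0.22 log2), and GLU1 (AT5G04140), a ferredoxin-dependent glutamate synthase, by 1.55 ± 0.29. BCAT-2 (AT1G10070), a branched-chain amino acid transaminase of the breakdown path, was at 29.3 and 12.3 CPM and then 4.52 and 4.56 CPM. Its log2 change of -2.19 ± 0.41 (edgeR adjusted p = 0.0396) was -1.44 (adjusted p = 0.107) without library 1 of day 4.

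From the RefSeq genome TAIR10.1, the 250 bases upstream of the annotated start are printed 5′ to 3′ on the strand of the gene. The 4 genes are the largest rise, a glucosinolate gene and a pair of the strongest falls. They are CYP82C2 at chr4:15462100-15462349 (plus strand), IMD1 at chr5:4575873-4576122 (plus strand), ICL at chr3:7656054-7656303 (minus strand) and ASN1 at chr3:17441432-17441681 (minus strand). Capitals mark matches on either strand to 6 motifs: the G-box CACGTG, the P1BS element GNATATNC, the core AACGG of mitotic activators, the evening element AAAATATCT, the site II element TGGGCC and the telo box AAACCCTAA, none of which contains another.
CYP82C2: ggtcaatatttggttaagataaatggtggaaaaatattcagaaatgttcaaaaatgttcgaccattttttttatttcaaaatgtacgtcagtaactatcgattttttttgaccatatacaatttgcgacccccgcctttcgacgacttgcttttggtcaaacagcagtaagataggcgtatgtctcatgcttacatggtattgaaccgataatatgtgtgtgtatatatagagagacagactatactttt
IMD1: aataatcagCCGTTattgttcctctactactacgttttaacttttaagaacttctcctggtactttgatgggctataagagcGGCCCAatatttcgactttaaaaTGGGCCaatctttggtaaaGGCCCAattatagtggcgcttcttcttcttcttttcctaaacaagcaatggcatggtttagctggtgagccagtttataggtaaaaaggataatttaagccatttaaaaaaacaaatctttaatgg
ICL: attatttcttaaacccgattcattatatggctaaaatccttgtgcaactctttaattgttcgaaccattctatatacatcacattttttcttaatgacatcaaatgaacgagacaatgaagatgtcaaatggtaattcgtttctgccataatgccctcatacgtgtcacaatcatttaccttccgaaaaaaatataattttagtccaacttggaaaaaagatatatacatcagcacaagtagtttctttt
ASN1: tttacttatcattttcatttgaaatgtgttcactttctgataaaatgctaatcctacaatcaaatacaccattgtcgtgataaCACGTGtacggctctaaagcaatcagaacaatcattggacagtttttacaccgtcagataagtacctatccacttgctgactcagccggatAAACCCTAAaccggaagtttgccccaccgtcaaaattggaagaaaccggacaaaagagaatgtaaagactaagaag
The genes themselves lie at chr4:15462350-15464563 (CYP82C2), chr5:4576123-4578402 (IMD1) and chr3:7652487-7656053 (ICL). The IMD1 window held 1 AACGG core and 3 site II elements, the ASN1 window 1 G-box and 1 telo box, and the windows of CYP82C2 and ICL none of the 6. Over windows of the same length, a G-box was found in 7.21% of 19630 tested protein-coding loci, in 9.01% of 433 called higher and in 7.22% of 443 called lower. The site II element was in 16.3%, 9.47% and 7.67% of these windows, the telo box in 2.05%, 0.693% and 0.677%, and the AACGG core in 21.8%, 16.6% and 17.8%. P1BS (5.44%, 6.005% and 6.77%) and the evening element (2.44%, 2.31% and 2.71%) were about as frequent in all 3 sets. These shares describe letters and not binding.

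Genes of aliphatic glucosinolate synthesis, which build methionine-derived glucosinolates, rose in large part: 7 of 12 tested members were called higher and none lower, all 12 log2 changes were above 0, and their median was 2.58. The summed level of the list was 147 and 208 CPM at 4 days and 478 and 711 CPM at 7 days. Chain elongation comes first in the pathway. BCAT4 (AT3G19710), the transaminase that starts it, was at 0.497 and 1.16 CPM at 4 days and 20.9 and 88.0 CPM at 7 days, a log2 change of 6.04 ± 0.87 (edgeR adjusted p = 0.0224). IMS2 (AT5G23020), also known as MAM3, a methylthioalkylmalate synthase, was at 9.37 and 24.8 CPM and then 92.8 and 151 CPM (2.83 ± 0.50 log2, edgeR adjusted p = 0.0385). IMD1 (AT5G14200), an isopropylmalate dehydrogenase of the same cycle, was at 14.4 and 26.3 CPM and then 77.1 and 126 CPM (2.32 ± 0.35 log2, edgeR adjusted p = 0.0206). In each of the 3 the lower 7-day library was above the higher 4-day library, which the naming rule required. The libraries of an age differed from each other by up to several-fold. BAT5 (AT4G12030), the plastid carrier for the keto acids, was at 3.64 and 5.62 CPM and then 17.5 and 24.5 CPM (2.18 ± 0.26 log2, edgeR adjusted p = 0.00776).

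The core steps followed. CYP79F2 (AT1G16400), which makes the aldoxime, was at 1.09 and 4.36 CPM and then 23.1 and 31.97 CPM, a log2 change of 3.34 ± 0.58 (edgeR adjusted p = 0.0409). CYP83A1 (AT4G13770), which oxidises the aldoxime, was at 0.563 and 1.87 CPM and then 16.3 and 51.7 CPM (4.81 ± 0.79 log2, edgeR adjusted p = 0.0414). Both genes had very low levels at 4 days, and neither pair overlapped the other, as the naming rule required. SOT17 (AT1G18590), a sulfotransferase of the last core step, rose by 1.13 ± 0.18, and its neighbour in the path SOT18 was at 0.86 ± 0.20 and not called. MYB28, the activator of the pathway, was at 6.26 and 9.26 CPM and then 21.7 and 16.7 CPM, which was not called (1.31 ± 0.46 log2, edgeR adjusted p = 0.15). SUR1, the C-S lyase shared with indole glucosinolates, was the uncalled member with the highest level, at 72.7 and 84.4 CPM and then 114 and 97.3 CPM (0.43 ± 0.13 log2). By edgeR, none of 22 members of the indole and ER body list was called higher and 1 lower. The latter was CYP81F3, which hydroxylates indole glucosinolates (-1.10 ± 0.19 log2). Of the 22 changes 17 were above 0, with a median of 0.54, and 13 members had an unadjusted edgeR p below 0.05. DESeq2 called 7 members higher and 3 lower. PYK10, the main glucosidase of ER bodies, had the highest level of that list.

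Without library 2 of day 4 the log2 changes of CYP79F2 and IMS2 were 4.65 and 3.70 and those of BCAT4 and CYP83A1 were 6.76 and 5.91. Without library 1 of day 4 they were 2.66 for CYP79F2 and 4.18 for CYP83A1. Without library 1 or library 2 of day 7 they were 6.73 and 4.65 for BCAT4 and 5.41 and 3.74 for CYP83A1. CYP79F2 is 92.0% identical to AT1G16410 and IMD1 94.2% to AT1G31180, and 11.7% of BCAT4 is overlapped on the other strand, so that these levels may share reads with those loci. The difference from dark roots was called for BAT5 and SUR1 alone among the 12, and in 8 of the 12 no dark library was above 1 CPM.

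**Figure D3:**
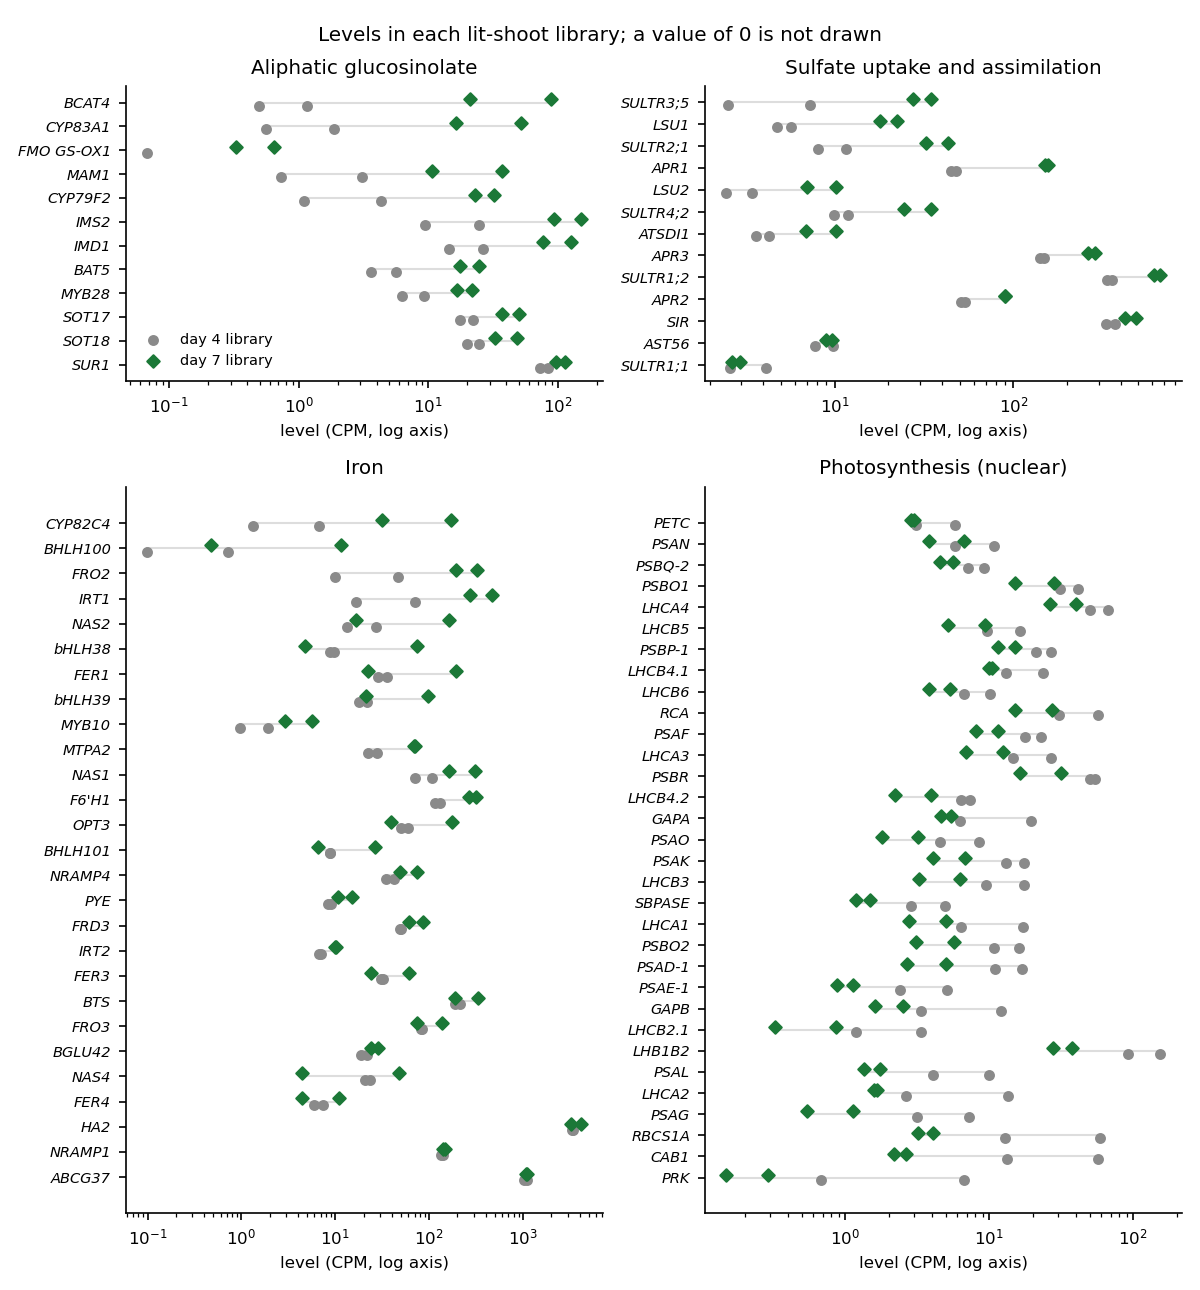
Level in each lit-shoot library (CPM, log axis, 0 not drawn) of every tested member of 4 lists; grey points are the 2 libraries of day 4 and green diamonds the 2 of day 7. The ages separate in all 12 aliphatic glucosinolate genes, 11 of 13 sulfate genes and 13 of 27 iron genes, where several 7-day pairs lie far apart. In the photosynthesis panel the 7-day points lie to the left of the 4-day points in 31 of 32 genes. Among all tested loci the ages separate at 55.9%.

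Sulfate uptake and assimilation, which supplies the sulfur of glucosinolates, had 5 of 13 members called higher and none lower, with a median of 1.11. Its summed level was 961 and 1015 CPM at 4 days and 1783 and 1724 CPM at 7 days. SULTR3;5 (AT5G19600), a sulfate transporter of the root stele, was at 2.55 and 7.25 CPM and then 34.8 and 27.5 CPM, a log2 change of 2.67 ± 0.50 (edgeR adjusted p = 0.0446), which was 3.61 without library 2 of day 4. SULTR1;2 (AT1G78000), the main root sulfate importer, was at 334 and 357 CPM and then 664 and 611 CPM (0.88 ± 0.12 log2, edgeR adjusted p = 0.0121). The enzyme that reduces activated sulfate is made by 3 genes, and all 3 were called. APR1 (AT4G04610) was at 44.8 and 47.5 CPM and then 156 and 151 CPM, with a log2 change of 1.73 ± 0.35. APR3 (AT4G21990) rose by 0.92 ± 0.15 and APR2 (AT1G62180) by 0.78 ± 0.16. SIR, the sulfite reductase of the next step, was the highest uncalled member, at 330.5 and 368 CPM and then 419 and 483 CPM (0.37 ± 0.13 log2). With the factors of DESeq2 in place of TMM, APR1 was not called.

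For iron the group pattern and the single calls parted. All 27 tested members had a log2 change above 0, with a median of 0.89, which was 0.47 without library 1 of day 7. The ages did not overlap in 13 of the 27, against 55.9% of all tested loci. Of these members 1 was called, MTPA2 (AT3G58810), also known as MTP3, a vacuolar zinc and cobalt exporter that root iron deficiency induces. MTPA2 was at 22.2 and 27.6 CPM and then 69.9 and 69.4 CPM, a log2 change of 1.48 ± 0.17 (edgeR adjusted p = 0.00676). DESeq2 called 7 members higher, and edgeR called 11 higher without library 2 of day 7, and 3 higher and 1 lower without library 1. The locus AT3G12900, an oxygenase that uses 2-oxoglutarate and iron, had been entered in this list under a symbol that the gene table does not carry, so that it stands outside these counts. It was called higher, with no count in either 4-day library and 173 and 447 counts at 7 days. The uptake genes, named after their values were seen, were higher in both 7-day libraries but not called: FRO2, the ferric reductase, was at 10.04 and 46.9 CPM and then 193 and 326 CPM, and IRT1, the ferrous iron transporter, at 16.8 and 71.3 CPM and then 271 and 473 CPM. Their log2 changes were 3.19 ± 0.69 and 3.08 ± 0.66, each with an edgeR adjusted p of 0.057, and the 4-day libraries differed from each other more than 4-fold. Of the regulators upstream and the ferritin genes, 3 were picked outside the naming rule, and they split the 7-day pair. bHLH38 was at 8.88 and 9.80 CPM and then 73.9 and 4.71 CPM, bHLH39 at 98.4 and 21.2 CPM at 7 days, and the ferritin gene FER1, an iron store, at 22.2 and 195 CPM at 7 days. These 3 were not called, and library 1 of day 7 was high in bHLH38 and bHLH39 where library 2 was high in FER1. HA2, the plasma membrane proton pump, had the highest level of the list and was not called (0.15 ± 0.16 log2).

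The other nutrient lists stayed near the background. In the phosphate list 1 of 18 members was called higher, PAP17 (AT3G17790), an acid phosphatase, at 13.8 and 10.5 CPM and then 20.7 and 18.9 CPM (0.70 ± 0.16 log2, edgeR adjusted p = 0.0476), with a list median of 0.11. PHO2, a ubiquitin-conjugating enzyme that limits phosphate uptake, was at 379.9 and 311 CPM and then 614 and 514 CPM and missed the threshold (0.71 ± 0.17 log2, edgeR adjusted p = 0.054). In the nitrogen list 1 of 24 was called, ASN1 (AT3G47340), the asparagine synthetase that darkness and sugar lack induce. ASN1 was at 35.7 and 17.3 CPM and then 1.48 and 4.24 CPM, a log2 change of -3.18 ± 0.59 (edgeR adjusted p = 0.0423). Both 7-day values were far below both 4-day values. The change was -2.57 without library 1 of day 4 and -4.16 without library 2 of day 7. The call of ASN1 was lost whichever of the 8 libraries was left out. GLT1, the NADH-dependent glutamate synthase, had the highest level of that list and a log2 change of 0.02 ± 0.16.

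Carbon starvation genes, which sugar represses, fell in part: 6 of 21 members were called lower and none higher, all 21 changes were below 0, and the median was -0.53. THA1 (AT1G08630), a threonine aldolase, was at 9.67 and 3.47 CPM and then 0.506 and 0.179 CPM, a log2 change of -4.30 ± 0.77 (edgeR adjusted p = 0.0396). SEN1 (AT4G35770), also known as DIN1, a gene of dark and senescence, was at 52.8 and 24.1 CPM and then 4.19 and 7.81 CPM (-2.67 ± 0.50 log2, edgeR adjusted p = 0.0427). MGL (AT1G64660), methionine gamma-lyase, was at 82.4 and 54.2 CPM and then 29.3 and 30.2 CPM (-1.20 ± 0.21 log2, edgeR adjusted p = 0.0256). In all 3 the ages did not overlap, a condition for naming them, and library 1 of day 4 was the higher of its pair. The other called members were BCE2 (AT3G06850) and IVD (AT3G45300), both of branched-chain amino acid breakdown, at -1.19 ± 0.19 and -0.88 ± 0.18, and DIN9 (AT1G67070), a mannose-6-phosphate isomerase, at -0.79 ± 0.17. Without library 1 of day 4 the change of THA1 was -3.38 and that of SEN1 -1.99, and without library 1 or 2 of day 7 that of THA1 was -5.17 and -3.69. GDH2, a glutamate dehydrogenase with the highest level of the list, was at 784 and 647 CPM and then 619 and 733 CPM (-0.08 ± 0.17 log2).

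The seed oil list had 1 of 14 members called, ICL (AT3G21720), isocitrate lyase, which lets carbon from fatty acids be kept for sugar synthesis. ICL was at 57.4 and 39.5 CPM and then 4.88 and 5.04 CPM, a log2 change of -3.29 ± 0.39 (edgeR adjusted p = 0.0123). The remaining members had changes from -1.14 to 0.32, and MLS, malate synthase, the partner of ICL in the glyoxylate cycle, was at 24.6 and 26.4 CPM and then 9.04 and 18.4 CPM and was not called. KAT2, the thiolase of fatty acid oxidation, written PKT3 in the gene table, had the highest level and was not called (-0.26 ± 0.16 log2). None of 14 seed storage and oil body genes reached the count limit. In the sugar list SUS1 (AT5G20830), a sucrose synthase, rose from 39.5 and 34.9 CPM to 60.8 and 61.5 CPM (0.72 ± 0.14 log2, edgeR adjusted p = 0.0303). MSS1 (AT5G26340), also known as STP13, a hexose importer, fell from 93.7 and 75.9 CPM to 55.0 and 42.0 CPM (-0.81 ± 0.18 log2, edgeR adjusted p = 0.0446). The remaining 12 sugar genes were not called, among them ATBFRUCT1, a cell wall invertase.

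Nuclear photosynthesis genes were low in these roots and lower at 7 days: 5 of 32 were called lower and none higher, all 32 changes were below 0, and the median was -1.42. The list summed to 844 and 468 CPM at 4 days and 200 and 299 CPM at 7 days; library 1 was the higher at 4 days and library 2 at 7 days. CAB1 (AT1G29930), a chlorophyll a/b binding protein, was at 57.3 and 13.2 CPM and then 2.64 and 2.18 CPM, a log2 change of -3.87 ± 0.69 (edgeR adjusted p = 0.0381). LHB1B2 (AT2G34420), also a light-harvesting protein, was at 154 and 91.9 CPM and then 27.8 and 37.5 CPM (-1.91 ± 0.28 log2, edgeR adjusted p = 0.0175). PSAG (AT1G55670), a photosystem I subunit, was at 7.19 and 3.13 CPM and then 0.542 and 1.13 CPM (-2.60 ± 0.52 log2, edgeR adjusted p = 0.0409). The ages did not overlap in these genes, a condition for naming them. PSAD-1 (AT4G02770) and PSAF (AT1G31330), further photosystem I subunits, fell by 1.85 ± 0.37 and 1.05 ± 0.23, and LHCA4 was the uncalled member with the highest level (-0.82 ± 0.21 log2). The change of CAB1 was -2.46 without library 1 and -4.57 without library 2 of day 4, and that of PSAG -1.88 without library 1 of day 4 and -3.24 without library 2 of day 7. DESeq2 called 24 members lower, and 3 when library 1 of day 4 was left out. CAB1 is 96.1% identical to AT1G29920 and LHB1B2 91.6% to AT2G34430, all of LHB1B2 and 61.4% of PSAG are overlapped on the other strand. Of 88 plastid-encoded loci 2 were called higher and none lower, with a median of -0.01.

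**Figure D4:**
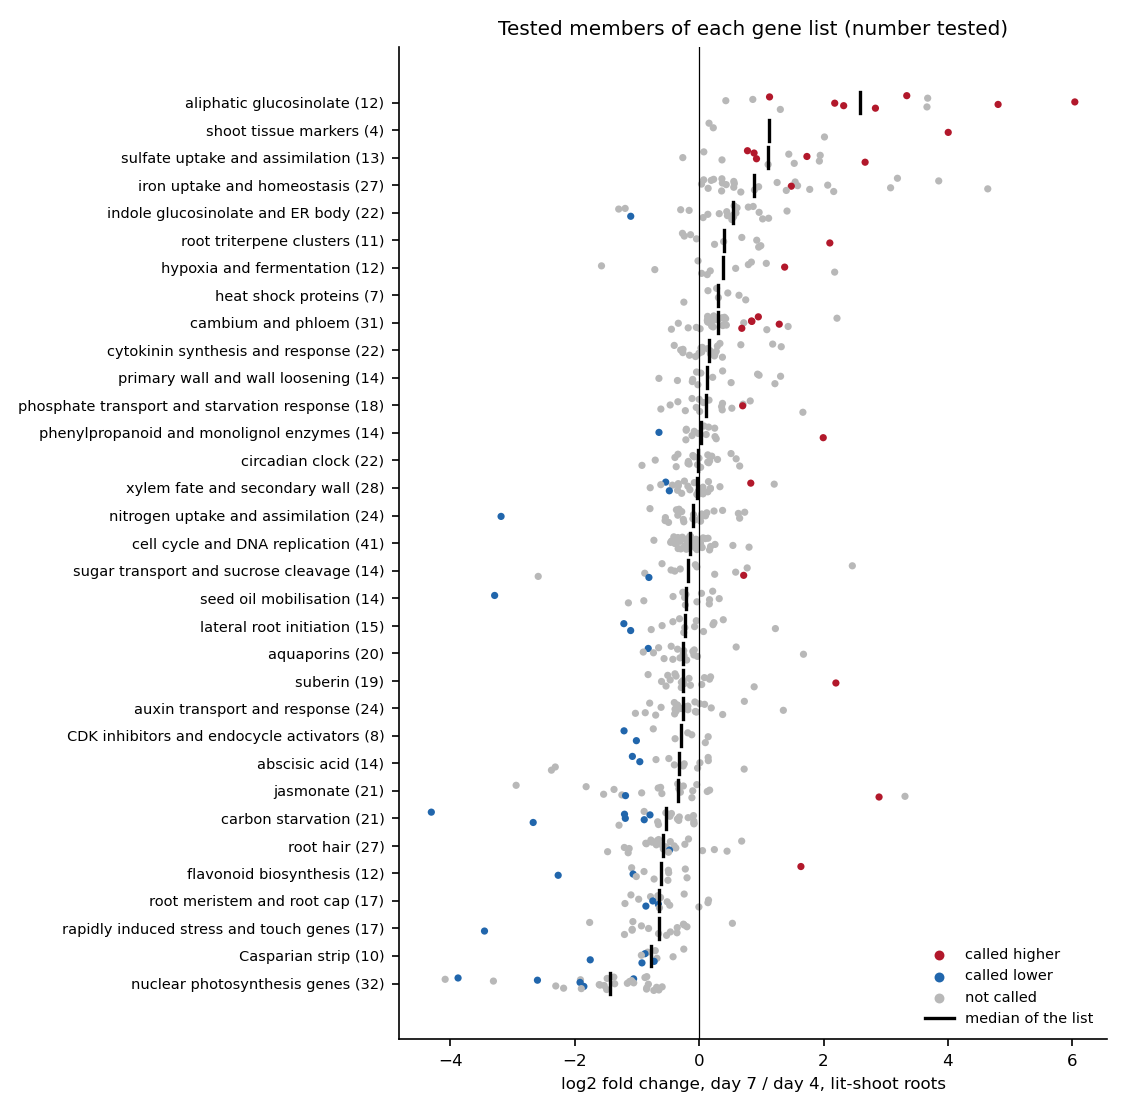
Log2 change from 4 to 7 days of every tested member of each list in lit-shoot roots; a point is a gene, red and blue mark an edgeR call higher and lower, and the black bar is the median of the list (all tested loci, -0.03). Aliphatic glucosinolate (2.58), the 4 tested shoot tissue markers (1.12), sulfate (1.11) and iron (0.89) lie highest, and photosynthesis (-1.42) and the Casparian strip (-0.77) lowest.

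The Casparian strip list fell in part: 4 of 10 members were called lower, all 10 changes were below 0, and the median was -0.77. In dark roots 7 of the 10 were called lower with age, with a median of -1.63. The difference between the conditions was called in favour of lit-shoot roots for 4 and against them for 1. MYB36 (AT5G57620), the activator of strip genes, was at 38.6 and 35.0 CPM and then 20.2 and 18.8 CPM, a log2 change of -0.92 ± 0.13 (edgeR adjusted p = 0.0127). CASP1 (AT2G36100) and CASP5 (AT5G15290) encode the scaffold proteins of the strip. CASP1 was at 176 and 149 CPM and then 92.6 and 85.7 CPM (-0.87 ± 0.18 log2, edgeR adjusted p = 0.0398). CASP5 was at 53.8 and 45.3 CPM and then 15.3 and 14.1 CPM (-1.75 ± 0.16 log2, edgeR adjusted p = 0.00539). Both libraries of an age lay close together in these genes, and the ages did not overlap, a condition for naming them. PER64 (AT5G42180), a peroxidase that polymerises the lignin of the strip, fell by 0.72 ± 0.16, while RBOHF, the NADPH oxidase that feeds it and the uncalled member with the highest level, was at -0.25 ± 0.10. The later suberin layer had 1 of 19 members called, FAR1 (AT5G22500), a fatty acyl reductase, at 6.09 and 7.11 CPM and then 36.7 and 24.01 CPM (2.2 ± 0.46 log2, edgeR adjusted p = 0.0492), and a median of -0.26. FAR1 was not called with the factors of DESeq2 or without organelle loci, and 34.4% of it is overlapped on the other strand. CYP86A1, the hydroxylase of suberin fatty acids with the highest level of that list, was not called.

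Phloem and cambium genes rose in part: 5 of 31 members were called higher and none lower, 27 changes were above 0, and the median was 0.30. SUC2 (AT1G22710), the companion cell sucrose loader, was at 29.6 and 23.1 CPM and then 54.2 and 48.0 CPM, a log2 change of 0.95 ± 0.14 (edgeR adjusted p = 0.0127). SEOR1 (AT3G01680) and SEOa (AT3G01670), the filament proteins of sieve elements, rose by 0.85 ± 0.14 and 0.84 ± 0.17, with SEOR1 at 27.9 and 23.4 CPM and then 49.9 and 42.5 CPM. CLE44 (AT4G13195), a peptide that keeps cambium cells dividing, was at 2.32 and 1.87 CPM and then 6.11 and 4.18 CPM (1.29 ± 0.28 log2, edgeR adjusted p = 0.0435). MOL1 (AT5G51350), a receptor kinase of the cambium, rose by 0.69 ± 0.13. PXY, the receptor of the CLE44 peptide, and the cambium factors WOX4 and ANT were named after their values were seen. They had changes of 1.09 ± 0.28, 2.22 ± 0.69 and 1.43 ± 0.40 and were not called. BAM3, a phloem receptor kinase with the highest level of the uncalled members, was at 0.44 ± 0.24.

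Of 28 xylem and secondary wall genes 1 was called higher and 2 lower, against 2.22% and 2.21% of all tested loci. The list median was -0.03, and its sign changed under 7 of 18 alternatives. TED6 (AT1G43790), which takes part in secondary wall formation of vessels, rose from 19.6 and 19.6 CPM to 41.6 and 28.2 CPM (0.83 ± 0.19 log2, edgeR adjusted p = 0.0488). MC9 (AT5G04200), a metacaspase, and RNS3 (AT1G26820), a ribonuclease, both of the dying vessel cell, fell by 0.48 ± 0.10 and 0.54 ± 0.12. No member was called with the lit-shoot libraries alone or without any single dark library. In dark roots 26 of the 28 were called lower with age and 2 higher (BFN1, a nuclease of dying cells, and FRA8, a glycosyltransferase of xylan synthesis), and the median was -3.57. The difference between the conditions was called in favour of lit-shoot roots for 23 and against them for 2. XCP2, a vessel protease with the highest level of the uncalled members, was at 140.0 and 124 CPM and then 183 and 110.1 CPM. Of 14 monolignol enzymes 1 was called in each direction: FAH1 (AT4G36220), the hydroxylase that leads to syringyl lignin, rose from 4.14 and 5.75 CPM to 19.3 and 20.2 CPM (2.00 ± 0.27 log2, edgeR adjusted p = 0.0121), and CAD4, a cinnamyl alcohol dehydrogenase written ATCAD4 (AT3G19450) in the gene table, fell by 0.64 ± 0.13.

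Cell cycle and DNA replication genes gave no call in either direction among 41 by edgeR and 2 by DESeq2, with a median of -0.15 and 5 members at an unadjusted p below 0.05. RNR1, a ribonucleotide reductase subunit with the highest level of the list, was at 70.9 and 81.8 CPM and then 67.5 and 66.4 CPM (-0.19 ± 0.11 log2). In dark roots 36 of the 41 were called lower, with a median of -1.82, and the difference between the conditions was called for 31, each in favour of lit-shoot roots. A pair of inhibitors of cyclin-dependent kinases fell. SIM (AT5G04470) was at 50.4 and 50.9 CPM and then 23.5 and 26.8 CPM (-1.01 ± 0.15 log2, edgeR adjusted p = 0.0142), and LGO (AT3G10525) at 13.7 and 15.1 CPM and then 5.42 and 7.04 CPM (-1.21 ± 0.20 log2, edgeR adjusted p = 0.0197). Both act in the switch to the endocycle, and they were the 2 called members of 8 in their list. SIM and LGO are overlapped on the other strand over 42.7% and 45.4% of their length.

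**Figure D5:**
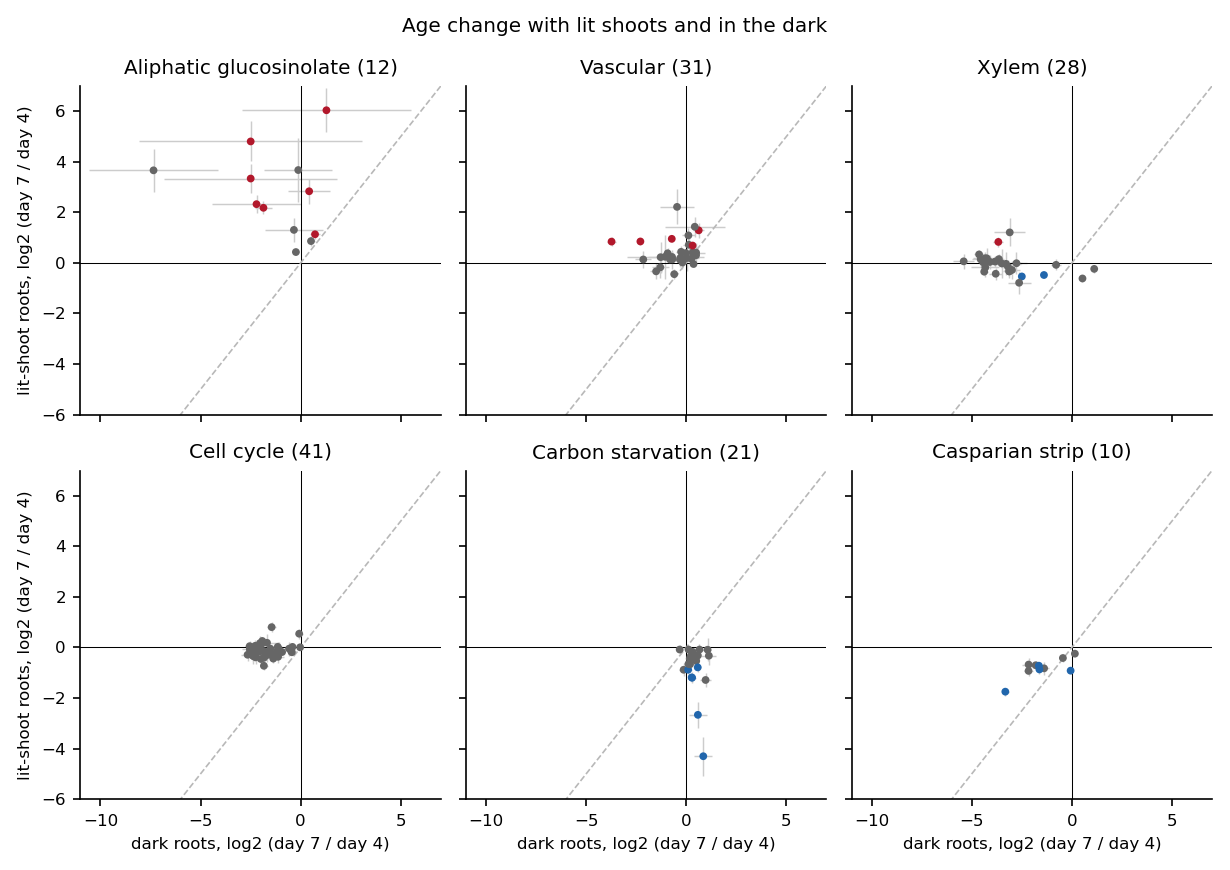
Log2 change from 4 to 7 days in lit-shoot roots (vertical axis) against that in dark roots (horizontal axis) for the members of 6 lists, with standard errors; red and blue points were called higher and lower in lit-shoot roots, and the dashed line marks equal change. Most xylem and cell cycle genes lie near 0 on the vertical axis and below 0 on the horizontal one, and carbon starvation genes lie below 0 on the vertical axis and near or above 0 on the horizontal one.

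The root meristem and root cap list fell in part, with 3 of 17 called lower and none higher and a median of -0.64, and the 3 were regulators of the meristem. AIL6 (AT5G10510), also known as PLT3, was at 50.1 and 48.5 CPM and then 22.8 and 31.6 CPM (-0.86 ± 0.14 log2, edgeR adjusted p = 0.0204), PLT1 (AT3G20840) at 15.5 and 16.4 CPM and then 9.62 and 9.45 CPM (-0.74 ± 0.16 log2, edgeR adjusted p = 0.0428). Both are PLETHORA factors that keep the stem cell niche. SHR (AT4G37650), which sets the identity of endodermis, was at 27.1 and 27.7 CPM and then 15.1 and 19.7 CPM (-0.65 ± 0.14 log2, edgeR adjusted p = 0.0434). WOX5, the marker of the quiescent centre, was near 1 CPM in all 4 libraries with a change of 0.15 ± 0.43. CEL5, a cellulase of root cap cells with the highest level of the uncalled members, was at 55.5 and 48.4 CPM and then 21.1 and 27.5 CPM (-1.10 ± 0.32 log2). In the lateral root list 2 of 15 were called lower, AIL5 (AT5G57390), also known as PLT5, by -1.10 ± 0.24 and the expansin EXPA17 (AT4G01630) from 40.0 and 33.0 CPM to 13.5 and 18.02 CPM (-1.21 ± 0.22 log2). PLT1 and SHR were not called when scaled by library totals alone. Root hair genes had 23 of 27 changes below 0 and a median of -0.58, with 1 called, RHD2 (AT5G51060), the NADPH oxidase of the hair tip, at 123 and 114 CPM and then 82.4 and 88.3 CPM (-0.48 ± 0.10 log2, edgeR adjusted p = 0.0360). RHD2 was not called by library totals alone, and CSLD3, a wall synthase of the hair with the highest level of that list, was at -0.23 ± 0.11.

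Hormone lists held few calls. None of 24 auxin and none of 22 cytokinin genes was called by edgeR, with medians of -0.26 and 0.16 and 8 and 2 members at an unadjusted p below 0.05; under DESeq2 2 and 1 were called. AUX1, the auxin importer, was at -0.29 ± 0.14 and ABCG14, the exporter of cytokinin to the shoot, at 0.67 ± 0.25. In the abscisic acid list 2 of 14 were called lower, NCED3 (AT3G14440), which makes its precursor, from 36.0 and 31.4 CPM to 18.4 and 16.4 CPM (-0.95 ± 0.15 log2, edgeR adjusted p = 0.0175), and COR47 (AT1G20440), a dehydrin, from 1003 and 902 CPM to 402 and 504 CPM (-1.07 ± 0.18 log2, edgeR adjusted p = 0.0208). Jasmonate genes went both ways: VSP1 (AT5G24780), a vegetative storage protein, was at 4.74 and 4.83 CPM and then 48.0 and 23.2 CPM (2.89 ± 0.33 log2, edgeR adjusted p = 0.00776; 2.28 without library 1 of day 7), and JAZ10 (AT5G13220), a repressor of the pathway, was at 1.59 and 1.63 CPM and then 0.904 and 0.537 CPM (-1.18 ± 0.26 log2). The other 19 of 21, MYC2 among them, were not called, and 17 of 21 changes were below 0. The sign of the cytokinin median changed without library 1 of day 7. MYC2 is overlapped on the other strand over 98.5% of its length.

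Rapidly induced stress and touch genes had 1 of 17 called lower and none higher, with 16 changes below 0 and a median of -0.65. RRTF1 (AT4G34410), an ERF factor of redox signalling, was at 6.86 and 4.05 CPM and then 0.831 and 0.209 CPM (-3.45 ± 0.64 log2, edgeR adjusted p = 0.0409), -4.68 without library 1 and -2.71 without library 2 of day 7, with 47.7% of it overlapped on the other strand. Library 1 of day 7 stood above library 2 by a median log2 ratio of 1.05 over this list, and its part in the changes was not tested. WRKY33 had the highest level of the uncalled members (-0.25 ± 0.27 log2). Of 12 hypoxia genes LBD41 (AT3G02550), a factor that low oxygen induces, rose from 2.88 and 3.302 CPM to 9.76 and 6.35 CPM (1.38 ± 0.21 log2, edgeR adjusted p = 0.0143), and in dark roots it changed by 1.34. None of 7 heat shock genes or 22 clock genes was called (edgeR; none and 1 at an unadjusted p below 0.05, none and 1 under DESeq2). The clock genes that peak near dawn split the 7-day pair, named after their values were seen: LHY was at 18.5 and 53.4 CPM there and CCA1 at 11.5 and 30.6 CPM, while PRR3, of the evening, was at 15.4 and 5.82 CPM. The hour of harvest is not given in the sources used here, and its part in these values was not tested.

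In the flavonoid list 1 of 12 was called higher and 2 lower, with 11 changes below 0 and a median of -0.61. TT7 (AT5G07990), the flavonoid 3′-hydroxylase, was at 12.6 and 19.9 CPM and then 3.72 and 3.04 CPM (-2.27 ± 0.28 log2, edgeR adjusted p = 0.00844). CHIL (AT5G05270), a chalcone isomerase-like helper, fell from 69.0 and 92.7 CPM to 40.0 and 37.5 CPM (-1.06 ± 0.19 log2), and UGT78D1 (AT1G30530), a flavonol rhamnosyltransferase, rose from 1.92 and 2.18 CPM to 7.63 and 5.16 CPM (1.64 ± 0.31 log2). RHM1, which makes the rhamnose, had the highest level of the list and was not called. Of the root triterpene clusters 1 of 11 was called, MRN1 (AT5G42600), marneral synthase, at 10.7 and 9.57 CPM and then 44.2 and 42.9 CPM (2.1 ± 0.36 log2, edgeR adjusted p = 0.0293). THAS1, thalianol synthase, was at 333 and 305 CPM and then 719 and 519.6 CPM and was not called by edgeR (0.96 ± 0.36 log2). Among 20 aquaporins 1 was called, GAMMA-TIP (AT2G36830), a tonoplast channel also known as TIP1;1, from 897 and 759 CPM to 395 and 545 CPM (-0.82 ± 0.19 log2, edgeR adjusted p = 0.0483), and 18 changes were below 0. GAMMA-TIP was not called by library totals alone. None of 14 primary wall and wall loosening genes was called by edgeR, with 5 at an unadjusted p below 0.05, 3 under DESeq2 and a median of 0.12. Of the 4 tested shoot markers PDF1 (AT2G42840), a wall protein of the shoot epidermis, was called, at 0.762 and 0.783 CPM and then 10.8 and 14.1 CPM (4.00 ± 0.46 log2, edgeR adjusted p = 0.00709).

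Over all lists 65 of 607 tested members were called in lit-shoot roots, 28 higher and 37 lower, where 4.43% of all tested loci were called, and 244 in dark roots, where 32.2% were. For 29 of the 65 the change with age differed from that in dark roots by the edgeR interaction test, against 15.1% of all tested loci. The lit-shoot contrast that chose the 65 is part of that difference, so that their share is only a description. ICL, PCK2, THA1 and SEN1 fell with lit shoots while their log2 changes in the dark were 0.94, 0.61, 0.85 and 0.58. SUC2, SEOR1, MRN1 and VSP1 rose with lit shoots where the changes in the dark were -0.72, -2.29, -2.77 and -2.40. MYB36, NCED3, HSPRO2 and RUP1 fell with lit shoots where the changes in the dark lay between -0.06 and 0.10.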

How the data were processed

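RNA-seq of primary roots was compared between 2 lit-shoot libraries of 7 days and 2 of 4 days, with 2 dark libraries of each age in the same fit. The authors deposited raw counts per locus, for which CASAVA 1.8.2, Subread, TopHat2, Trim Galore and FastQC are named with the TAIR10 genome, per the submitters' processing notes. Whether counting used strand or reads with several matches is not given in the sources used here, so that overlapping genes and near-identical copies are stated beside their values. The 8 libraries held 25326045 to 30555290 counts, and at this depth the spread between 2 samples a group sets the precision.

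Loci with at least 10 counts in 2 of the 4 lit-shoot libraries (20492) were fitted with edgeR 4.0.16 in R 4.3.3 (TMM scaling, robust quasi-likelihood, 1 coefficient per group, 4 residual degrees of freedom). The contrasts were day 7 minus day 4 with lit shoots, the same in the dark, and their difference. P-values were adjusted over all tested loci by the Benjamini-Hochberg method and called below 0.05. A value after ± is a standard error, taken as the log2 change over the root of its F statistic. CPM values are counts over the tested total scaled by TMM. Tested on simulated data with 20175 loci for the lit-shoot contrast, the fit recovered 20.3% of 1.5-fold, 73.1% of 2-fold and 95.3% of 4-fold changes, with 5.38% false calls. The simulation gave every group the same spread at a locus. In the data the chi-square per degree of freedom was 12.1 for the 4-day and 68.0 for the 7-day lit-shoot pair, so that these rates need not hold here.

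The members and gene lists were chosen with earlier results of these data known. Of 697 list members, 678 had a matching symbol in RefSeq's gene table (TAIR10.1) and 607 were tested. Named genes were the 12 largest called rises and falls with a symbol, no overlap between ages and a mean log2 CPM that reached 3, and, per list, up to 3 called rises and falls with a mean log2 CPM of at least 0 and the uncalled member with the highest CPM. Other called list members, and those said to be named after their values were seen, were added. Uncalled members were also named outside this rule, among them bHLH38, bHLH39, FER1, MYB28, SOT18, MLS and WOX5. The alternatives tried were other scalings, filters, only the lit-shoot libraries, DESeq2 1.42.0, a replicate block and leaving out each library. Copies were found with BLAST 2.17.0 at 90% identity over 50% of the length.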

Additional observations from a re-analysis of the deposited data

Results flagged for a closer look

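For 30 named genes the change with age under lit shoots differed from that in dark roots by edgeR's interaction test (adjusted p below 0.05, with 15.1% of all tested loci called). They had been chosen by their change with lit shoots, which is part of that difference. The values below are the log2 change with lit shoots minus that in the dark.

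In 16 of them the change moved lower with lit shoots. These were genes of carbon and amino acid turnover, with THA1 at -5.15, ICL at -4.23, SEN1 at -3.25, BCAT-2 at -2.84, PCK2 at -2.39 and MGL at -1.49. Stress and light signalling genes were RRTF1 at -3.10, RUP1 at -1.78, HSPRO2 at -1.71 and NCED3 at -0.92, and the sugar transporter PMT6 was at -1.77. Genes of meristem, endodermis and endocycle were AIL5 at -1.37, SIM at -1.07, MYB36 at -0.86, AIL6 at -0.81 and SHR at -0.74.

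In the others the change moved higher with lit shoots. Genes of phloem, vessels and lignin were TED6 at 4.50, FAH1 at 3.46, SEOR1 at 3.14, RNS3 at 1.96, SUC2 at 1.68 and MC9 at 0.92. RNS3, MC9, CASP5 at 1.57 and RHD2 at 0.79 fell with age under both conditions and fell further in the dark. PDF1 at 7.29, VSP1 at 5.29, MRN1 at 4.87, BAT5 at 4.04, GSTL1 at 1.72 and MTPA2 at 1.04 completed the set.

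PDF1 had the largest of these differences. It is itself 1 of the 16 shoot markers, and without it their summed level was 43.5 and 37.6 CPM at 4 days and 49.2 and 49.8 CPM at 7 days in lit-shoot roots, most of it from KCS10.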

How the results depend on the processing

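Under other scalings, other filters that kept a limit on counts and the lit-shoot libraries alone, the 907 calls stayed within 1.5 times as counts. So did the 455 higher, the 452 lower and the 429 at least 2-fold. The 3096 differing from dark roots did so under those scalings and filters, and have no value without dark libraries. Of the 907, those scalings and filters kept 772 to 890, the lit-shoot libraries alone 575, and leaving out a dark library 593 to 756. With the lit-shoot libraries alone BCAT-2, RNS3, CAB1, PSAF, TED6, PSAG, DIN9, MC9, JAZ10, IMS2, MSS1, RHD2, AIL5, PAP17, BCAT4, IVD, GAMMA-TIP, CLE44, CYP83A1 and SHR were not called. Without 1 or more dark libraries THA1, CYP79F2, APR2, SULTR3;5, FAR1, PER64, ATCAD4, PLT1, ASN1, CASP1, PSAD-1, RRTF1 and SEN1 were not called either. With no filter on counts, the called, higher, lower, at least 2-fold and differing loci were 3056, 1368, 1688, 997 and 4964. DESeq2 called 1787, with 774 higher, 1013 lower and 684 at least 2-fold. Leaving out 1 of the 8 libraries gave 0 to 1138 calls, 0 to 534 higher, 0 to 604 lower, 0 to 571 at least 2-fold and 850 to 3017 differing from dark roots. Without library 1 of day 4 DESeq2, an alternative chosen after seeing the data, called 488, with 297 higher, 191 lower and 2023 differing from dark roots; the cause of these shifts was not tested. No called gene among the 98 chosen by rule turned its direction under any alternative, and 9 uncalled ones did (AlaAT1, GDH2, GLT1, GRP7, HA2, PIP2A, PYK10, WRKY33 and XCP2). The called ones had been chosen for no overlap between the ages and the uncalled ones had not. This contrast therefore follows in part from the choice.

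A fit with the replicate number as a block called 975 loci, of which 781 were among the 907. The replicate numbers are not stated to pair the samples. Deviations of same-numbered lit-shoot libraries correlated at 0.105 and those of the other pairs of groups between -0.009 and 0.075. These values cannot show whether libraries of the same number were handled together.

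Without library 2 of day 4, 75 of the 907 remained, without library 1 of day 7 252 and without library 2 of day 7 575. Scaling by library totals alone lost RNS3, GAMMA-TIP, PLT1, SHR and RHD2. DESeq2's factors lost APR1 and FAR1, leaving out organelle loci lost FAR1 and MSS1, and DESeq2 lost CYP71A19. The replicate block lost 6 of the 98 genes chosen by rule, which are not named here. The median of the clock list changed sign under 9 alternatives, of the xylem list under 7, and of the sugar and primary wall lists without library 1 of day 4. That of the monolignol list did so without library 1 and of the phosphate list without library 2 of day 7.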

Other observations

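Gene families outside the lists, chosen after their values were seen, are given as counts beside the background of 2.22% called higher and 2.21% lower. Of 52 glutathione transferases 11 were called higher and none lower by edgeR, with a median log2 change of 0.21. GSTF7, of the phi class, was at 314 and 379 CPM at 4 days and 988 and 1046 CPM at 7 days, a log2 change of 1.55 ± 0.19. GSTF9, of the same class, rose by 1.14. Of 41 arabinogalactan proteins, which are heavily glycosylated proteins of the cell surface, 9 were called lower and none higher, with a median of -0.60. FLA2, a fasciclin-like member, was at 193 and 189.7 CPM and then 102 and 102 CPM (-0.91 ± 0.09 log2), and AGP4 fell by 1.03. Of 44 pectin methylesterases and their inhibitors 10 were called lower and 2 higher, with a median of -0.59. UNE11, an inhibitor of that family, was at 41.4 and 40.5 CPM and then 15.3 and 17.1 CPM (-1.34 ± 0.15 log2). Of 26 GATA factors 6 were called lower and 2 higher, and GATA9 was at 18.18 and 18.31 CPM and then 6.51 and 7.64 CPM (-1.37 ± 0.13 log2). Cytochrome P450 genes went both ways, with 12 of 161 higher and 10 lower.

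At 6 loci called higher neither 4-day library held a count, so that they passed the count limit only through both 7-day libraries. That limit let in 179 loci through both 7-day libraries alone and 82 through both 4-day libraries alone. The locus AT3G12900, annotated as an oxygenase that uses 2-oxoglutarate and iron, had 173 and 447 counts at 7 days, which is at least 201-fold higher against a floor of 3 counts over the 4-day group. ABCG39, an ABC transporter, had 46 and 158 counts at 7 days, at least 66.2-fold higher. A further 11 loci had 1 to 3 counts at 4 days and also passed only through both 7-day libraries. GolS4, a galactinol synthase, had 1 and 1 and then 69 and 174, a ratio of 118 (95% exact interval 32.4 to 982, counting error only). HAK5, the potassium transporter that potassium lack induces, had 2 and 0 and then 38 and 23, a ratio of 29.7 (7.88 to 251). FMO GS-OX2, which oxidises the side chain of aliphatic glucosinolates, had 2 and 0 and then 27 and 27, a ratio of 26.3 (6.93 to 223). No locus called lower had 3 or fewer counts at 7 days, and such a locus could pass only through both 4-day libraries.

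Of the 907 called loci 457 carry no symbol in the gene table. AT1G26390, annotated as an FAD-binding berberine family protein, was at 5.60 and 4.43 CPM at 4 days and 112 and 149 CPM at 7 days (4.70 ± 0.61 log2, edgeR adjusted p = 0.0176). AT5G38910, a cupin, was at 8.28 and 8.68 CPM and then 107.4 and 101.4 CPM (3.62 ± 0.61 log2, edgeR adjusted p = 0.0343).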
